A study of Drosophila melanogaster with 20 samples.

Results

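The comparison described here is whether the transcriptome of the fly head changed with age in the same way in chm/+ as in wild type. It uses all 20 of the 20 libraries and all 9831 genes of the deposited table. Flies counted as young were 7 days old, in 5 wild-type and 6 chm/+ libraries, and flies counted as midlife were 22 to 23 days old, in 4 wild-type and 5 chm/+ libraries. Every library holds polyadenylated RNA from 25 to 30 pooled heads of adult male Drosophila melanogaster, collected where both sexes were kept together, and was read as 50 bp single reads. The labels name the genotypes only as wt and chm/+, a single mutant copy of chm, and no source used here gives the allele, the background strain or the number of independent lines. Libraries are named by their columns, with 2uy for young wild type, 2uo for midlife wild type, CHMy for young chm/+ and CHMo for midlife chm/+. Pooling means that each value is an average over many animals.

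The gene chm (chameau) encodes a lysine acetyltransferase of the MYST family, enzymes that place acetyl groups on histones and other proteins and so act on how readily genes are transcribed. In Drosophila chameau is known as a chromatin regulator that can act in gene silencing and as a partner of JNK signalling and the AP-1 transcription factor. In the adult fly head, ageing is known for rising immune gene expression, and blood cells (haemocytes) there take up dying cells and debris and secrete matrix and defence proteins. The quantity followed throughout is the age by genotype difference, which is the log2 change from young to midlife in chm/+ minus the same change in wild type. A negative value means a smaller rise, or a larger fall, in chm/+.

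Levels are the authors' normalized counts, scaled by them to a common library size, and log2 changes were taken after adding 14.48 normalized counts to each value, so changes of genes near 0 are understated. The values of a group are listed in the order 2uy1 to 2uy5, then 2uo1, 2uo2, 2uo4 and 2uo5, and CHMo11, CHMo12, CHMo2, CHMo3 and CHMo5, and for the 6 young chm/+ libraries the lowest, median and highest are given. A gene is called where the Benjamini-Hochberg adjusted p of limma, two-sided and over all 9831 genes, is under 0.05. Column totals ran from 27572012 to 30470376 and read depth is unknown. Between libraries of the same group Pearson's r across genes was 0.972 to 0.997. The 30 phototransduction genes measured summed to between 2194220 and 3112130 normalized counts in every library, while 3 measured genes of testis and accessory gland summed to between 109 and 235. The labels do not say that replicates are separate cultures, so each p measures the spread between these libraries. Earlier results on these data set CHMo12, CHMy2 and 2uo2 apart from their groups. Without these 3 libraries the calls of CG2010, pyx, CG17005, dos, ItgalphaPS4, FBgn0033786 and CG17119 described here were lost.

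The mutated gene itself was lower in chm/+ at both ages. Its level was 676, 589.6, 588, 622 and 602 in the young wild-type libraries and 678, 613, 591 and 571 in the midlife ones. In young chm/+ it ran from 283 to 351 with a median of 323, and midlife chm/+ was at 364, 346, 329, 304 and 337. No chm/+ library reached the lowest wild-type library. The age by genotype difference of chm was 0.07 (SE 0.10, 95% interval -0.14 to 0.28, limma adjusted p = 0.968).

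The difference was called for 35 genes, 0.356% of those tested, and 655 genes (6.66%) had an unadjusted p under 0.05, 204 of them (2.08%) positive and 451 (4.59%) negative. In 33 of the 35 called genes (0.336% of all genes) the change was more negative in chm/+, and in 2 (0.0203%) it was more positive. The number in the column names was also used as a replicate block. Within both genotypes, as planned, this block called 17 genes, 14 of them among the 35, against 32 in the same libraries with no block. NimC4, Jhe, scb, spheroide and CG3589 were among the 21 genes it lost. A block in chm/+ alone, where same-numbered libraries deviated together, was chosen after seeing the data. Same-numbered chm/+ libraries also lie in the same run of 10 columns, so number and run cannot be told apart. Both fits left out CHMo5, CHMy1 and CHMy4, which have no partner of the same number. Leaving out CHMo5 alone, with no block, gave 66 calls. With the block in chm/+ alone 54 genes were called, 31 of them among the 35, against 51 in the same libraries with no block. The calls of CG5535, pyx, CG17005 and Tsp42Ec were lost under that block, with adjusted p-values of 0.0743, 0.0782, 0.0711 and 0.0995. The 33 hold a phagocytic receptor, a juvenile hormone esterase, predicted serine proteases, 2 integrin alpha chains with cytoskeletal genes, and tetraspanins. With age, 32 of the 33 rose in wild type, where 12.4% of all genes rose and 11.3% fell. In chm/+, where 8.63% rose and 7.36% fell, 20 of the 33 rose, 12 were not called and CG5535 fell. Between genotypes 1.45% of all genes were called when young and 1.95% at midlife. Of the 33, 31 were lower in chm/+ at midlife, as were 1.24% of all genes. When young 0 were lower, as were 0.559% of all genes, and CG5535 and Tsp42Er were higher, as were 0.895%. The median log2 difference between genotypes over the 33 was 0.05 when young and -1.20 at midlife, against -0.0008 and 0.0004 over all genes. At midlife the wild-type and chm/+ libraries did not overlap for 29 of the 33, as for 4.48% of all genes, and when young for 3, as for 2.77%. The same libraries chose these genes, so these counts describe the choice and test nothing.

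**Figure D1:**
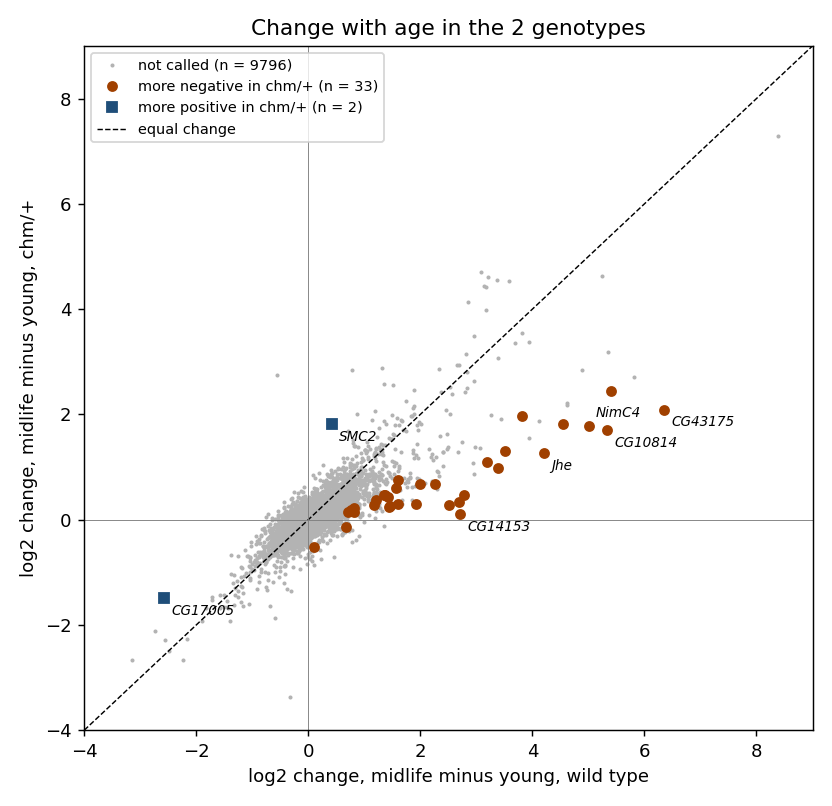
Each point is a gene, placed by its log2 change from young to midlife in wild type (x axis) and in chm/+ (y axis), with the dashed line marking equal change. The 33 called genes with a more negative change in chm/+ lie below the line, all with a positive change in wild type. SMC2 and CG17005 lie above the line.

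The only member of the haemocyte and phagocytosis list that was called is NimC4, also known as simu, a receptor with which phagocytes recognise apoptotic cells. Its level was 8.58, 18.4, 9.37, 3.32 and 5.78 in young wild type and 577, 707, 1044 and 654 in midlife wild type. In young chm/+ it ran from 8.02 to 19.8 (median 13.8), and midlife chm/+ was at 105 in CHMo11, 7.86 in CHMo12, 124 in CHMo2, 101 in CHMo3 and 189.5 in CHMo5. Each midlife wild-type library exceeded each midlife chm/+ library, and CHMo12 was at the level of young flies. NimC4 rose in both genotypes, by 5.01 (SE 0.41) in wild type and 1.78 (SE 0.37) in chm/+, a difference of -3.23 (SE 0.55, limma adjusted p = 0.00933).

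The rest of that list mostly had negative differences that were not called. Of its 16 measured members 14 had a negative difference, with a median of -0.38 against 0.01 over all genes, and 7 had an unadjusted p under 0.05, as 6.66% of all genes did. NimC1, a receptor for bacteria on plasmatocytes, was 228, 386, 182, 447 and 273 in young wild type and 1037, 963, 1034 and 1296 at midlife. In chm/+ it ran from 350 to 789 when young (median 441), and at midlife the values were 1028, 398, 460, 549 and 1265. Here the midlife groups overlapped, with CHMo11 and CHMo5 at wild-type levels, and the difference of -1.47 (SE 0.43) had an adjusted p of 0.291. NimC2 (-1.15) and, among members picked after their values were seen, the phagocytic receptor gene eater (-1.14), the haemolectin gene Hml (-0.96) and the engulfment receptor gene drpr (-0.46) also had negative differences that were not called. NimB1, another Nimrod gene picked in this way, had 0.00, with changes of 1.69 in wild type and 1.70 in chm/+. Without NimC4 the list summed to between 26885 and 33233 normalized counts in young wild type, 51959 and 64091 in midlife wild type, 30472 and 36091 in young chm/+, and 33022 and 56954 in midlife chm/+. The lowest midlife chm/+ sum was that of CHMo12 and the highest that of CHMo5. No member other than NimC4 had a group mean under 100.1, so none is at 0. Among midlife chm/+ libraries the median log2 level of the 33 genes above the young mean was also lowest in CHMo12 and highest in CHMo5. Other libraries were ordered differently. CHMo11 had a sum of 52506, within the midlife wild-type range, with a median of 0.42 against 1.61 to 1.99 in midlife wild type. There 2uo1 had the lowest sum and the highest median. The part of these sums in the result was not tested. In whole heads, fewer cells of a type and less RNA per cell cannot be told apart.

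Among genes of secreted and circulating factors, Jhe encodes juvenile hormone esterase, an enzyme that degrades juvenile hormone. It stood at 21.9, 53.4, 56.9, 151 and 153 in young wild type and at 1416, 1409, 2102 and 1490.04 in midlife wild type. Young chm/+ libraries ran from 43.4 to 79.6 (median 59.8), and at midlife the values were 139, 56.6, 187, 226 and 331. The midlife groups did not overlap, and CHMo12 again lay in the young range. The change was 4.20 (SE 0.41) in wild type and 1.26 (SE 0.37) in chm/+, a difference of -2.94 (SE 0.55, adjusted p = 0.0169) that was not called without 2uo4 (adjusted p = 0.0589). Jhe was the only one of 13 measured juvenile hormone genes to be called. Its paralogue Jhedup had -0.96 (SE 0.47, adjusted p = 0.756), with means of 7.52 and 85.2 in wild type and 21.4 and 73.1 in chm/+, and the epoxide hydrolase gene Jheh1 had -0.34 (SE 0.13, adjusted p = 0.596).

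Serine proteases, or inactive relatives of them, are encoded by 4 of the called genes, where 0.356% of all genes were called. The measured genes of this family were not counted, so its share called is not known. One of them, spheroide, is a serine protease homologue that acts in the cascade that activates the Toll receptor. The level of spheroide was 34.1, 33.6, 30.02, 13.004 and 29.2 in young wild type and 736, 907, 1166 and 1060.1 at midlife. The young chm/+ values ran from 15.9 to 37.7 (median 23.7), and at midlife the values were 94.7, 22.7, 124, 213 and 328. At midlife the groups did not overlap. The difference was -2.73 (SE 0.55, adjusted p = 0.0286), and the call was lost when any of 2uy3, 2uy4, 2uy5, 2uo2, 2uo4, 2uo5, CHMy4, CHMy12, CHMo2 or CHMo11 was left out, with an adjusted p of up to 0.0952.

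CG4650, a predicted trypsin-like protease, was 1.10, 0.935, 1.86, 5.22 and 1.18 in young wild type and 175, 107, 136 and 132 at midlife. For chm/+ the young level ran from 0.720 to 5.60 (median 1.97), and at midlife the values were 21.4, 7.65, 19.6, 20.6 and 51.5. Both genotypes were near 0 when young and both rose, to levels that did not overlap, and the difference was -2.10 (SE 0.29, adjusted p = 0.00104). CG30087 and CG43336, also predicted proteases, behaved alike in form, with differences of -1.84 (SE 0.31) and -1.57 (SE 0.27) and midlife levels of 273 to 409 against 27.9 to 121 and of 34.7 to 94.7 against 5.21 to 25.5. The calls of spheroide and CG30087, and not that of CG4650, were lost with an addend of 0.1 CPM.

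In the Toll pathway list as a whole, 17 of 19 measured members had a negative difference and 1, spheroide, was called, where 0.356% of all genes were. The list's median was -0.16, and -0.09 without CHMo12, CHMy2 and 2uo2, and 4 had an unadjusted p under 0.05, as 6.66% of all genes did. SPE, the protease that cuts the Toll ligand, averaged 4965 and 6399.98 in wild type and 6229 and 5617 in chm/+, a difference of -0.53 (SE 0.17, adjusted p = 0.407). The transcription factor genes Dif and dl, picked after their values were seen, had differences of 0.05 and -0.03.

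The cell adhesion and cytoskeleton group holds scb, which encodes the integrin alpha-PS3 chain, and ItgalphaPS4, the gene beside it on arm 2R with 0 genes between them in the reference annotation. The level of scb was 713, 699, 725, 689 and 722 in young wild type and 2189, 1999, 2549 and 1984 at midlife. In chm/+ it ran from 649 to 822 when young (median 707), and at midlife the values were 1179, 874, 1159.6, 1300.3 and 1649. There was no overlap at midlife and every midlife chm/+ library exceeded every young one. The difference was -0.85 (SE 0.17, adjusted p = 0.0223), not called without 2uy4, 2uo1, 2uo4, CHMo2 or CHMo11 (adjusted p up to 0.0857).

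ItgalphaPS4, expressed at a lower level, averaged 18.8 and 84.3 in wild type and 17.98 and 34.9 in chm/+, a difference of -0.98 (SE 0.20, adjusted p = 0.0352). Its call was kept only when the library left out was 2uy1, 2uy5, 2uo5, CHMy2, CHMy4 or CHMo5, and was lost with quantile normalization and without CHMo12, CHMy2 and 2uo2 together (adjusted p = 0.134). Myo61F, a class I myosin gene, was 40.6, 47.0, 33.7, 28.9 and 33.8 in young wild type and 512, 534, 723 and 522 at midlife. Young chm/+ libraries ran from 32.9 to 50.9 (median 41.6), and at midlife the values were 171, 41.8, 126, 128 and 253. The young groups overlapped and the midlife groups did not, with a difference of -2.21 (SE 0.38, adjusted p = 0.00933). Act42A, a cytoplasmic actin gene, averaged 792 and 1805 in wild type and 834.5 and 1041 in chm/+ (-0.89, SE 0.18, adjusted p = 0.0296), a call kept only without 2uy2, 2uo1, 2uo2, CHMy1, CHMy3, CHMo11, CHMo12 or CHMo5 in turn.

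**Figure D2:**
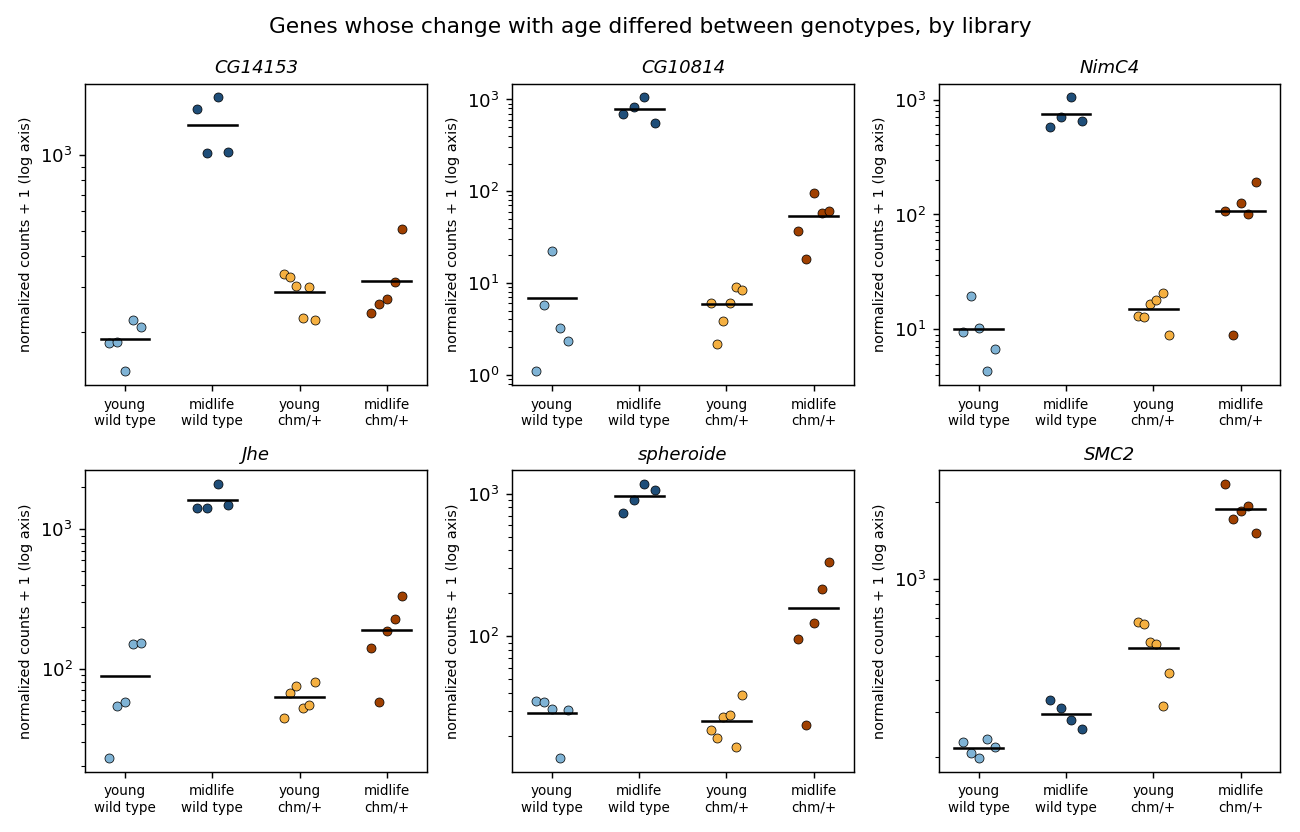
Normalized counts plus 1 on a log axis for 6 called genes, with 1 point per library and a bar at the group mean. For CG14153, CG10814, NimC4, Jhe and spheroide every midlife wild-type library lies above every midlife chm/+ library, and for SMC2 every chm/+ library lies above the wild-type libraries of its age.

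Genes of basement membrane, the matrix sheet to which integrins bind, were not called in 10 of 10 measured cases with limma. Of these 10, 4 had an unadjusted p under 0.05, as 6.66% of all genes did. Their median was -0.28, and -0.11 without CHMo12, CHMy2 and 2uo2. LanA, a laminin chain gene, averaged 460.5 and 1148 in wild type and 575 and 814 in chm/+ (-0.87, SE 0.28, adjusted p = 0.407). The collagen IV gene Cg25C had -0.87 (SE 0.31, adjusted p = 0.497). For both LanA and Cg25C the midlife chm/+ libraries CHMo11 and CHMo5 lay within the wild-type range and CHMo12, CHMo2 and CHMo3 lay below it.

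Metabolic and transport genes form a further group. CG1942, which the reference annotation calls Dgat2, belongs to the diacylglycerol acyltransferase family of triglyceride synthesis. Its level was 53.6, 66.1, 44.8, 54.3 and 66.1 in young wild type and 609, 391, 672 and 245 at midlife. The young chm/+ values ran from 42.3 to 70.5 (median 49.3), and at midlife the values were 52.9, 75.2, 45.5, 83.1 and 97.5. Only wild type rose past the threshold, by 2.70 (SE 0.23), against 0.34 (SE 0.21) in chm/+, a difference of -2.36 (SE 0.31, adjusted p = 0.000916). The midlife groups did not overlap, and 3 of the 5 midlife chm/+ libraries lay above the young chm/+ range.

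CG10814, a predicted gamma-butyrobetaine dioxygenase of carnitine synthesis, was at 0.0864, 4.76, 21.1, 2.22 and 1.31 in young wild type and at 698, 823, 1054 and 549 at midlife. For chm/+ the young level ran from 1.18 to 8.06 (median 5.05), and at midlife the values were 36.1, 17.3, 94.6, 57.5 and 60.5. It rose in both genotypes without any overlap of the midlife libraries, and the difference was -3.64 (SE 0.40, adjusted p = 6.23e-05). CG1208, a predicted sugar transporter, averaged 415 and 1176 in wild type and 448 and 549 in chm/+ (-1.20, SE 0.21, adjusted p = 0.0101). CG17119, the fly cystinosin gene for cystine export from lysosomes, had -0.67 (SE 0.14, adjusted p = 0.0410), called only when the library left out was 2uo5, CHMy4, CHMy12, CHMo3 or CHMo5, and not without CHMo12, CHMy2 and 2uo2 together (adjusted p = 0.164).

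CG5535, a predicted cationic amino acid transporter, differed from the rest in form. Its level was 284, 347, 354, 320.4 and 313 in young wild type and 366, 395, 309.7 and 318 at midlife. In chm/+ it ran from 417 to 482 when young (median 439.6), and at midlife the values were 314, 352, 304, 278 and 283. The genotypes did not overlap when young, with chm/+ higher, and overlapped at midlife. CG5535 fell in chm/+ by 0.52 (SE 0.08) and the change of 0.10 in wild type was not called, a difference of -0.62 (SE 0.12, adjusted p = 0.0169).

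Tetraspanins are small membrane proteins that organise other proteins in the cell surface. Of 30 measured genes of this family 2 were called, both from the Tsp42E cluster, where 0.356% of all genes were called. Tsp42Er was 9.79, 6.57, 11.1, 25.4 and 35.2 in young wild type and 236, 117, 326 and 154 at midlife. Young chm/+ libraries ran from 57.9 to 131 (median 87.5), and at midlife the values were 156, 55.5, 88.8, 161 and 234. The young groups did not overlap, with chm/+ higher, and the midlife groups did. The difference was -2.31 (SE 0.49, adjusted p = 0.0433), and the call was kept only without 2uy5, 2uo2, CHMy2, CHMy3, CHMy4 or CHMo5 in turn. It was lost too with an addend of 2 CPM and with a filter of 5 CPM. Tsp42Ec averaged 13.2 and 72.95 in wild type and 24.1 and 32.4 in chm/+ (-1.30, SE 0.28, adjusted p = 0.0462), a call kept only without 2uo2, CHMy2 or CHMo5. Tsp42Ek of the same cluster had the smallest p among positive differences that were not called: it averaged 608 and 413 in wild type and 443 and 448 in chm/+, a difference of 0.56 (SE 0.14, adjusted p = 0.117). Tsp42Eb, picked after its values were seen, averaged 57.6 and 1668 in wild type and 46.1 and 335 in chm/+, and its difference of -2.43 (SE 0.64, adjusted p = 0.169) was more negative than those of the called members but was not called. Over the 30 tetraspanins 18 differences were negative and 12 positive, with a median of -0.05.

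Signalling and channel genes among the 33 include dos, an adaptor of receptor tyrosine kinase signalling, at -0.82 (SE 0.16, adjusted p = 0.0204, lost without 2uy4, 2uo4, 2uo5 or CHMo2, and at 0.0705 without CHMo12, CHMy2 and 2uo2 together). The TRP channel gene pyx averaged 184 and 309 in wild type and 198 and 221 in chm/+ (-0.56, SE 0.11, adjusted p = 0.0177, lost without CHMo2, and at 0.0763 without the same 3 libraries). CG2010, named FipoQ in the reference, averaged 331.5 and 529.6 in wild type and 315 and 287 in chm/+. Its change in wild type was called at 0.67 (SE 0.11) and its change in chm/+ of -0.13 was not, a difference of -0.80 (SE 0.14, adjusted p = 0.0145) that was not called without those 3 libraries (adjusted p = 0.0863).

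Several of the clearest differences belong to genes with no role given here. CG14153 had the smallest p of all 9831 genes: it was 179.8, 182, 138, 221 and 208 in young wild type and 1528, 1020.4, 1698 and 1031 at midlife. The young chm/+ values ran from 222 to 338 (median 302), and at midlife the values were 237, 256, 269, 314 and 509. Apart from CHMo5 the midlife chm/+ libraries stayed within the young chm/+ range, and the genotypes overlapped at neither age. The difference was -2.61 (SE 0.27, adjusted p = 6.23e-05). CG43175 had the most negative difference of the called genes. It was 1.14, 0.913, 7.62, 3.21 and 5.53 in young wild type and 2418, 809, 2576 and 878 at midlife. For chm/+ the young level ran from 2.58 to 11.7 (median 4.93), and at midlife the values were 73.4, 4.66, 50.7, 153 and 215. The change was 6.35 (SE 0.50) in wild type and 2.09 (SE 0.45) in chm/+, a difference of -4.26 (SE 0.67, adjusted p = 0.00699), with CHMo12 at the young level.

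CG30148 was 6.49, 10.6, 12.3, 8.53 and 6.85 in young wild type and 138, 83.4, 157 and 107 at midlife, whereas in chm/+ it ran from 10.5 to 28.2 (median 21.3) and then was 31.8, 19.2, 21.7, 26.7 and 41.2. At midlife the groups did not overlap and the chm/+ groups of both ages did (-2.24, SE 0.25, adjusted p = 6.23e-05). CG7763 was 22.6, 17.1, 31.9, 26.6 and 41.1 in young wild type and 1545, 1410.1, 2248 and 1891 at midlife. In chm/+ it ran from 15.2 to 53.8 when young (median 45.5), and at midlife the values were 254, 51.4, 261, 471 and 889. These midlife groups too did not overlap, and within chm/+ CHMo12 was again at the young level and CHMo5 the highest. The difference was -2.95 (SE 0.64, adjusted p = 0.0472), a call kept only without CHMo12, CHMo3, CHMo5 or CHMy2 in turn. It was lost too with an addend of 0.1 CPM, with a filter of 5 CPM and without a mean trend.

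CG6891 was 92.0, 116, 101, 74.6 and 55.6 in young wild type and 907, 912, 1306 and 1036 at midlife. Young chm/+ libraries ran from 69.6 to 140.2 (median 90.4), and at midlife the values were 336, 53.5, 184, 214 and 395. There was no overlap at midlife, and the difference of -2.40 (SE 0.48, adjusted p = 0.0276) was lost without 2uy4, 2uy5, 2uo4, 2uo5, CHMy3, CHMy4 or CHMo2. CG3589 was 675, 704, 653, 656 and 677 in young wild type and 1049, 1225, 1146 and 1186 at midlife. The young chm/+ values ran from 623 to 703 (median 668), and at midlife the values were 812, 646, 747, 799 and 821. The spread within each group was small, the midlife groups did not overlap, and the difference of -0.57 (SE 0.09, adjusted p = 0.00826) kept its call when any single library was left out.

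The other called genes with a negative difference were CG15152 (-1.64), the gene listed as FBgn0033786 without a symbol (-1.30), the noncoding gene CR6900 (-1.21), CG32091 (-0.99), CG18858 (-0.89), CG31683 (-0.88) and CG32032 (-0.58). The calls of CR6900, CG18858 and CG31683 were lost without 2uo4, that of CG32091 without 2uy3, 2uo4, 2uo5 or CHMo2, and that of FBgn0033786 without any but 2uy2, 2uo1, CHMy1 or CHMo5, and without CHMo12, CHMy2 and 2uo2 together (adjusted p = 0.158). CG18858 and CG31683 lie 1 gene apart and had nearly equal means, 3403 and 3490.3 in young wild type, so reads may have been shared between them, and both are counted in the 33 and the 35. CG6891 and CR6900 on the X also lie 1 gene apart. By arm, 13 of the 35 lie on 2R (0.668% of its 1945 measured genes), 6 on 2L (0.348%), 7 on 3L (0.383%), 5 on 3R (0.211%) and 3 on X (0.187%), and 1 has no arm in the table.

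The first of the 2 genes with a more positive change in chm/+ was SMC2, a core subunit of condensin, the complex that compacts chromosomes. It was 228, 208, 198, 234 and 219 in young wild type and 334, 312, 279.6 and 258 at midlife. For chm/+ the young level ran from 317 to 674 (median 561), and at midlife the values were 2349, 1719, 1837, 1933 and 1507. Every chm/+ library lay above every wild-type library of its age, and every midlife chm/+ library lay above the young ones. The change was 1.81 (SE 0.15, adjusted p = 1.35e-07) in chm/+ and 0.42 (SE 0.17, adjusted p = 0.0827, not called) in wild type, a difference of 1.39 (SE 0.23, adjusted p = 0.00826). Of 17 measured condensin and cohesin genes SMC2 alone was called, and the next by p were Cap-D3 at 0.20 (SE 0.11, adjusted p = 0.819) and Cap-H2 at 0.31 (SE 0.17). Their list's median was 0.09, and -0.02 without CHMo12, CHMy2 and 2uo2. In the DNA replication list 0 of 22 were called by limma, 0 had an unadjusted p under 0.05, and the median was -0.12.

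CG17005, whose role is not given here, fell in both genotypes and fell less in chm/+. It was 1786, 1636, 1704, 1929 and 1785 in young wild type and 238, 283, 443 and 215 at midlife. In chm/+ it ran from 1185 to 1675 when young (median 1509.96), and at midlife the values were 466, 638, 444, 470.5 and 530.2. The midlife groups did not overlap, though 2uo4 at 443 lay close to CHMo2 at 444, and the difference was 1.08 (SE 0.21, adjusted p = 0.0204), lost without 2uo5 or 2uo1, and without CHMo12, CHMy2 and 2uo2 together (adjusted p = 0.104).

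Positive differences that were not called included daw, which encodes an activin-like ligand of the TGF-beta family. It averaged 1305 and 885 in wild type and 1347 and 1515 in chm/+, a difference of 0.71 (SE 0.22, adjusted p = 0.319). The midlife ranges of daw, 781 to 993 and 1181 to 2037, did not overlap. Pdfr, the receptor of the clock neuropeptide PDF, had 0.27 (SE 0.08, adjusted p = 0.314), and ppk8, of the pickpocket channel family, had 0.54 (SE 0.15, adjusted p = 0.244). CG1722, CG12316, CG32683, CG15601, CG5674 and CG7879 had 0.77, 0.30, 0.45, 0.34, 0.31 and 0.26.

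The libraries of midlife chm/+ were not alike over the 33 genes. Their position was measured as the median log2 level above the young mean of the genotype. It was 1.99 in 2uo1, 1.61 in 2uo2, 1.96 in 2uo4 and 1.74 in 2uo5, and in chm/+ it was 0.42 in CHMo11, 0.0006 in CHMo12, 0.33 in CHMo2, 0.55 in CHMo3 and 0.84 in CHMo5. The chm/+ libraries lay below the wild-type ones, which the choice of genes favours, and spanned a wider range. CHMo12 was the lowest midlife chm/+ library for 21 of the 33 (for 28.7% of all genes) and CHMo5 the highest for 28 (for 19.4%). Without CHMo12, 36 genes were called, 30 of them among the 35, and without CHMo5, 66 were. In wild type 2uo4 was the highest midlife library for 18 of the 33 (for 17.2% of all genes), and without it 19 genes were called.

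**Figure D3:**
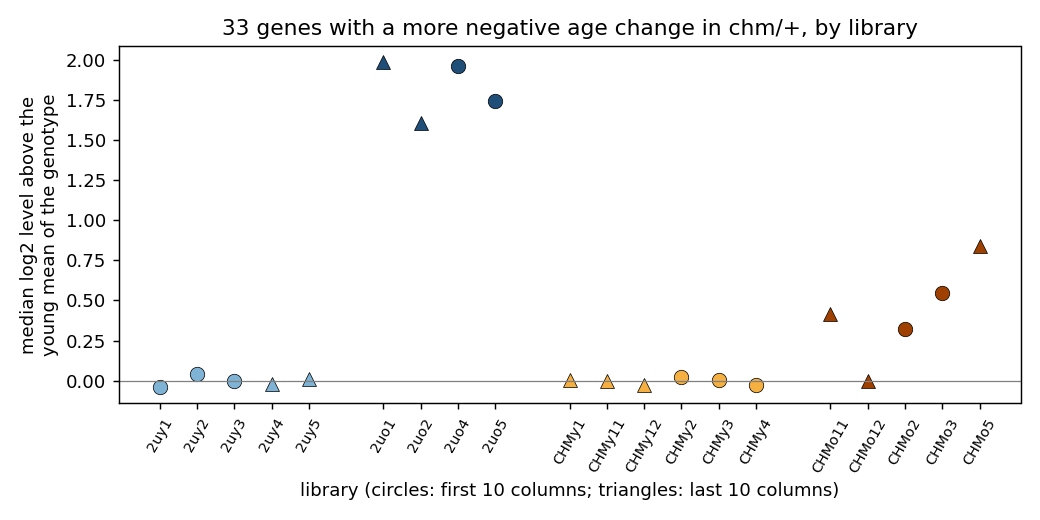
Median over the 33 genes of the log2 level above the young mean of the same genotype, 1 point per library, with circles for the first 10 columns of the table and triangles for the last 10. Young libraries lie near 0 by construction, midlife wild type lies between 1.61 and 1.99, and midlife chm/+ between 0.0006 and 0.84.

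The deposited table lists its columns in 2 runs of 10 that each hold all 4 groups, and no label calls them batches. Along the first principal component, with 47.0% of the variation within groups, the first 10 columns lay between -27.5 and -4.66. The last 10 lay between 0.96 and 23.6, except 2uo2 at -11.9. The main fit holds no term for the runs, and with such a term 46 genes were called. In the first 10 columns alone 69 genes were called for the difference, 65 lower and 4 higher, and in the last 10 alone 1 was called, CG10814, at -4.07 (SE 0.43, adjusted p = 0.0203) against -3.11 (SE 0.52) in the first. At an unadjusted p under 0.05 the numbers were 1193 and 271. The genes called in the first 10 columns were then read in the last 10, which had no part in choosing them. Of the 65 lower genes 62 had a negative difference there, as did 51.6% of all genes, and 32 had also an unadjusted p under 0.05, as did 1.92% of all genes. Their median went from -1.33 to -0.80, whereas all genes had -0.01. The 4 higher genes were all positive there, with a median of 0.11 after 0.71. Genes share libraries and are not independent, so these shares carry no test.

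Of these genes, 2 picked after their values were seen differed little in the last columns. The collagen IV gene vkg had -1.19 (SE 0.17) in the first and -0.24 (SE 0.41) in the last, and the Notch ligand gene Ser had -1.32 (SE 0.21) and -0.13 (SE 0.35). Another pair picked in this way kept its size, with Itgbetanu, an integrin beta chain gene, at -1.34 (SE 0.23) and -1.65 (SE 0.69), and CG4653 at -2.04 (SE 0.32) and -2.35 (SE 0.86). For NimC4 the values were -2.88 (SE 0.35) and -3.54 (SE 0.98), for SMC2 1.79 (SE 0.25) and 1.02 (SE 0.24), and for Jhe -3.44 (SE 0.40) and -2.04 (SE 0.69).

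**Figure D4:**
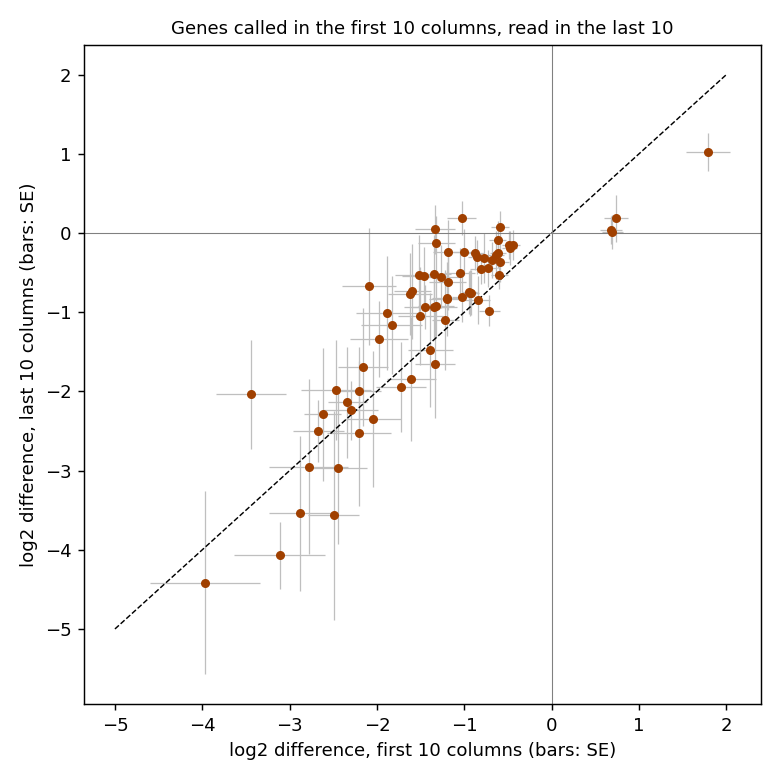
Age by genotype difference (log2) of the 69 genes called in the first 10 columns, in those columns (x axis) and in the last 10 (y axis), with bars of 1 SE and a dashed line of equal values. Of the 65 negative genes 62 stay below 0 on the y axis, many of them nearer to 0 than on the x axis, and the 4 positive genes stay above it.

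Of the genes called with age in both genotypes, 1144 changed in the same direction and 0 in opposite directions, where 23.7% of all genes were called in wild type and 16.0% in chm/+. The 95% interval of the difference lay within 1 log2 unit of 0 for 9076 genes (92.3%) and within 0.5 for 5151 (52.4%). The interval reached a median of 0.35 to each side of the estimate. A difference of at least 1 was estimated for 98 genes, 84 lower and 14 higher, and 22 of these were called. Among 227 genes whose change averaged over both genotypes was at least 1, the rise was smaller in chm/+ for 145, the median difference was -0.35 and 20 were called. Among 50 genes whose averaged change was at most -1, the fall was smaller in chm/+ for 21, the median difference was -0.08 and 1 was called. Over all genes 47.5% had a negative difference.

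Antimicrobial peptides, the secreted effectors of the Toll and Imd pathways, had mostly positive differences. Of 16 measured, 13 had a positive difference and 0 were called by limma, 1 having an unadjusted p under 0.05, as 6.66% of all genes did. Drs, the drosomycin gene, was 236, 579.7, 4939, 318 and 299 in young wild type and 9347, 1007, 5261 and 13264 at midlife. Young chm/+ libraries ran from 467 to 863 (median 689.1), and at midlife the values were 33824, 8035, 15575, 35157 and 13341. The groups overlapped at both ages, and the difference of 1.62 had a 95% interval from -0.50 to 3.74. The list's median of 0.67 became -0.01 without 2uy3, the young wild-type library with the high Drs value. The member with the smallest p, Drsl5, was negative, at -1.21 (SE 0.38, adjusted p = 0.367).

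The 13 Bomanin and immune-induced peptides had a median of 0.06, whose sign changed in 5 of the fits with 1 library left out and which was -0.10 without CHMo12, CHMy2 and 2uo2, and IM23 had 1.56 (SE 0.60, adjusted p = 0.596). The 5 measured Turandot genes, secreted stress peptides, had differences from -2.16 to -1.22, none of them called by limma. Of the 5, 3 had an unadjusted p under 0.05, as 6.66% of all genes did. TotA was 7154, 13247, 18137, 17090.0 and 14454 in young wild type and 137748, 72981, 76771 and 155151 at midlife. The young chm/+ values ran from 11959 to 26982 (median 18633), and at midlife the values were 106935, 12171, 38248, 35127 and 121246. The midlife groups overlapped through CHMo11 and CHMo5, and CHMo12 lay in the young range (difference -1.58, SE 0.67, adjusted p = 0.675).

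The peptidoglycan recognition and Imd list, with 21 measured, had 0 called and a median of 0.01. In it 2 had an unadjusted p under 0.05, as 6.66% of all genes did. That median was negative in 16 of the 20 fits with 1 library left out, with quantile normalization, in either run of 10 columns alone (-0.05 and -0.01) and without CHMo12, CHMy2 and 2uo2 (-0.02). Within it PGRP-SA, a soluble sensor upstream of Toll, was 608, 859.7, 845, 539.8 and 565 in young wild type and 1917, 2137, 3086 and 4089.8 at midlife. For chm/+ the young level ran from 604 to 942 (median 633) and the midlife values were 1590.5, 524, 1199.8, 1707 and 1649. At midlife the groups did not overlap, and the difference was -1.20 (SE 0.39, adjusted p = 0.411). In the melanization list PPO1, a prophenoloxidase gene of crystal cells, came close to the threshold (-3.04, SE 0.68, adjusted p = 0.0618). It ran from 447 to 2983 in young chm/+ (median 674) and was 110.2, 85.8, 48.6, 48.4 and 146 in midlife chm/+, against 285 to 892 and 212 to 638 in wild type. The highest young values were those of CHMy11 and CHMy12 (2328), and the midlife groups did not overlap.

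Among housekeeping lists the proteasome, which degrades tagged proteins, had the most members with a small p. Of 35 measured genes 33 had a negative difference and 24 an unadjusted p under 0.05, against 6.66% of all genes, but 0 were called by limma. The median difference was -0.28, with a median change of 0.25 in wild type, where 16 rose, and -0.03 in chm/+, where 0 rose. Rpn11, a deubiquitinase of the regulatory particle, was 1414, 1549.6, 1519, 1540.1 and 1538 in young wild type and 1689.7, 2028, 1841 and 2011 at midlife. In chm/+ it ran from 1593 to 1919 when young (median 1682), and at midlife the values were 1931, 1407, 1663, 1724.5 and 1820.3. The groups overlapped at midlife through CHMo11, CHMo3 and CHMo5 and did not when young, with chm/+ higher, and the difference was -0.32 (SE 0.11, adjusted p = 0.479). Without CHMo12, CHMy2 and 2uo2 the list's median was -0.15. Rpt3R, a paralogue of an ATPase subunit gene picked after its value was seen, had 0.55.

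Cytosolic ribosomal protein genes had a negative difference in 73 of 85, with a median of -0.08 that became 0.003 without CHMy2 and 0.11 without CHMo12, CHMy2 and 2uo2. For mitochondrial ribosomal proteins it was 59 of 72 (median -0.07, and -0.0004 without those 3 libraries), for oxidative phosphorylation 28 of 36 (-0.11, and -0.05) and for glycolysis 11 of 13 (-0.17, and 0.06). In these lists 0 genes were called by limma, and 0, 2, 0 and 0 had an unadjusted p under 0.05. Autophagy genes had a median of -0.01.

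Detoxification genes also had mostly negative differences. Of 76 cytochrome P450 genes 53 had a negative difference (median -0.11, 6 with an unadjusted p under 0.05), and of 40 glutathione and UDP-glycosyl transferases 30 had (median -0.16, 5 such), where 6.66% of all genes had a p this small. Without CHMo12, CHMy2 and 2uo2 these medians were -0.14 and -0.12. GstE3 averaged 1686 and 2552 in wild type and 2171 and 2122 in chm/+ (-0.62, SE 0.19, adjusted p = 0.319), and Cyp6a8 had -0.57 (SE 0.17, adjusted p = 0.310). The peroxiredoxin genes Prx2540-1 and Prx2540-2, near-identical copies whose reads may be shared, had -1.01 and -1.03, and the antioxidant list had a median of -0.13, and -0.05 without those 3 libraries. Odorant-binding protein genes had 23 of 26 negative and a median of -0.27 (-0.20 without them), with 3 at an unadjusted p under 0.05, among them Obp28a at -1.28 (SE 0.51, adjusted p = 0.635). None of these lists held a called gene.

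Neuronal lists had mostly positive differences. All 20 presynaptic release genes had a positive difference, with a median of 0.23 from changes of -0.41 in wild type and -0.21 in chm/+, and 0 were called or had an unadjusted p under 0.05. The synapsin gene Syn averaged 11515 and 8471 in wild type and 11726 and 10128 in chm/+ (0.22, SE 0.14, adjusted p = 0.848). Without CHMo12, CHMy2 and 2uo2 the list's median was -0.05. Of 25 genes for acetylcholine, GABA and amine transmission 24 had a positive difference, with a median of 0.20 and 0.09 without the 3 libraries, and VGAT, the vesicular GABA transporter gene, had 0.21 (SE 0.09, adjusted p = 0.675). Heat shock and chaperone genes had 23 of 24 positive and a median of 0.16, which was -0.05 in the last 10 columns alone, and Hsp68 had 0.42 (SE 0.17, adjusted p = 0.635). Muscle genes had a median of 0.18 in all libraries, 0.05 without the 3 and -0.11 in the last 10 columns.

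**Figure D5:**
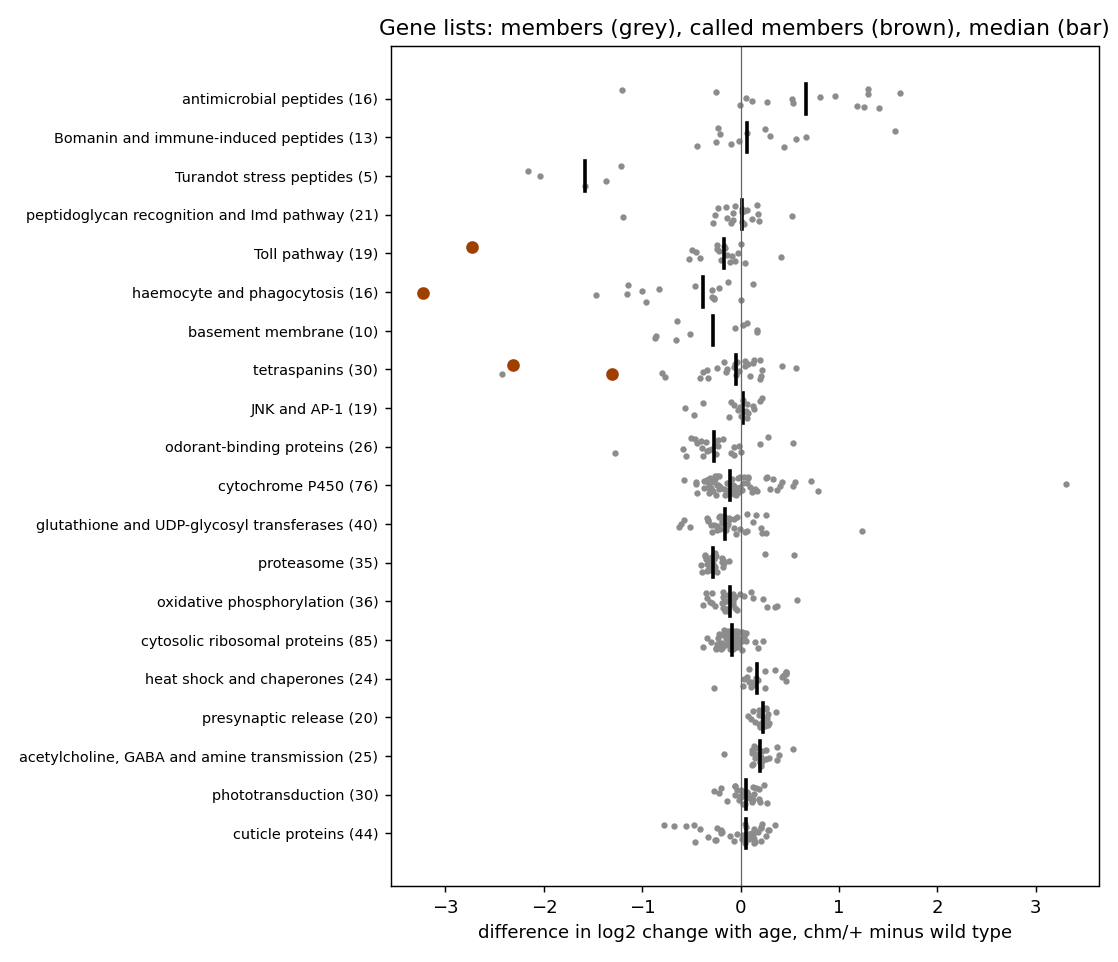
Age by genotype difference (log2) of the measured members of 20 gene lists, with 1 grey point per gene, larger brown points for called genes and a bar at each list's median; the number of measured members stands in brackets. Called members appear in the Toll, haemocyte and tetraspanin lists, and the proteasome and presynaptic lists lie almost wholly on opposite sides of 0.

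Lists close to the known actions of chameau held no called gene. Of 11 lysine acetyltransferase genes, 10 histone deacetylase and sirtuin genes and 25 Polycomb and heterochromatin genes, 0 were called by limma, and 1, jing, had an unadjusted p under 0.05. Their medians were 0.03, 0.01 and 0.06, and the 95% interval lay within 1 log2 unit of 0 for 11, 10 and 24 of them. In the JNK and AP-1 list 3 of 19 had an unadjusted p under 0.05, as 6.66% of all genes did, and 0 were called. The JNK-activating ligand gene egr averaged 753.5 and 1368 in wild type and 848 and 1056 in chm/+ (-0.56, SE 0.16, adjusted p = 0.269). Mmp1, a matrix metalloproteinase gene that JNK signalling induces, had -0.47 (SE 0.15, adjusted p = 0.399). For egr the midlife libraries overlapped through CHMo5 alone, at 1437 against 1285 to 1428 in wild type.

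Insulin and TOR signalling, a pathway known for its part in lifespan, had 0 of 20 genes called by limma and 0 with an unadjusted p under 0.05. All 20 intervals lay within 1 log2 unit of 0, and the median was 0.05. Neuropeptide precursors (median 0.08 over 22), cuticle proteins (0.05 over 44), lens proteins (0.05 over 8), phototransduction (0.05 over 30), clock genes (0.05 over 11) and glia (-0.01 over 11, positive under all 3 other scalings) also held no called gene. Nplp3, a neuropeptide-like precursor gene, averaged 6724 and 740.2 in wild type and 7868 and 1245 in chm/+, a difference of 0.49 (SE 0.27, adjusted p = 0.832). In the head fat body list (median -0.09 over 15) Cyp4g1, a P450 of hydrocarbon synthesis, had 3.31 with an SE of 1.56, and its values ran from 2.04 to 499.97 within young chm/+. The dosage compensation list had a median of 0.21 over 7 genes, which was 0.08 without 2uo2 and 0.05 without CHMo12, CHMy2 and 2uo2, and msl-2 had 0.21 (SE 0.08, adjusted p = 0.556).

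Markers of other tissues were checked by their sums. The 5 measured of 18 midgut genes summed to between 28884 and 35725 normalized counts in young wild type, 67834 and 86763 in midlife wild type, 32204 and 48903 in young chm/+, and 53484 and 83463 in midlife chm/+, so the midlife groups overlapped. LM408, a member with the smallest p of that list, had a difference of -0.53 (SE 0.21, adjusted p = 0.599). Yolk protein genes, a sign of female tissue, summed to between 2067 and 8912 over all libraries. The part of these markers in the result was not tested.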

How the data were processed

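Per the labels' protocols, polyadenylated RNA from pooled male heads was sequenced, and the submitters' processing notes name BDGP5, TopHat2 2.0.5 and edgeR (no version given). The authors deposited 1 table of normalized counts for 9831 genes, taken here as a signal with no whole reads recoverable, so no count model was run. Its columns name a group but are not tied to single listed samples. Of 226 genes without a symbol, 3 were named from the reference annotation.

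Values were analysed as log2(value + 14.48), an addend of 0.5 CPM at the mean column total. A minimum of 1 CPM in 4 libraries removed 0 genes. One mean per group was fitted with limma 3.58.1 in R 4.3.3 with a mean trend, and all adjusted p-values are two-sided, from limma and over 9831 genes. The fit was tested on simulated data with independent noise and 100 changed genes of each of 2 sizes. Of genes changed by 1 log2 unit in the age by genotype difference 79% were called, and of those changed by 2, 98%. There were 13 false calls among 190. The simulation held no age effects and no deviations shared between genes, so these shares are not the power in the real libraries. Named genes are chm, every called gene, the 10 positive differences of smallest p that were not called, and the 3 members of smallest p of each of 42 lists, and any other is said to be picked after its value was seen. The members and lists were chosen with earlier results of these data known. Same-numbered libraries had residual correlations of 0.165 to 0.635 in chm/+, where they also lie in the same run of 10 columns, and of -0.533 to 0.352 in wild type, where they do not. Between genotypes, same-numbered young libraries had 0.656 (number 2) and 0.360 (number 3) within the same run of columns. Those in different runs had -0.524 (number 4) and -0.407 (number 1). At midlife, again in different runs, the values were 0.126 (number 5) and 0.412 (number 2). The values of 0.412 and of 0.352 in wild type involve 2uo2, which lay with the first 10 columns along the first principal component. In chm/+ the number therefore cannot be told apart from the run of columns. A block by number was fitted within both genotypes, as planned, and in chm/+ alone, chosen after seeing the data. No label says what the numbers mark. Alternatives were other scalings, addends, filters, moderation, weights, libraries, column sets and a block. Figures were drawn with matplotlib 3.10.9. No sequences or coordinates were used.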

Additional observations from a re-analysis of the deposited data

Results flagged for a closer look

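In 144 groups of 4 to 6 libraries tested for a value far from the others of its group, 11 held one, in 9 genes, where chance flags about 1 in 20 groups. Midlife chm/+ values that stood apart were CHMo5 at 509 for CG14153 and at 355 for CG2010, and CHMo3 at 25.5 for CG43336. In midlife wild type 2uo4 stood high at 723 for Myo61F and at 2102 for Jhe. Young wild-type values that stood apart were 2uy3 at 21.1 for CG10814, 2uy4 at 5.22 for CG4650, 2uy4 at 13.004 for spheroide and 2uy1 at 1.05 for CG43336. In young chm/+ these were CHMy11 at 11.7 for CG43175 and CHMy2 at 3.65 for CG43336. Of these 9 genes, Jhe was not called without 2uo4 and spheroide was not called without 2uy4, and the other 7 kept their call whichever library was left out.

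The change with age differed between the genotypes, by limma's test of the difference over all genes, for the 35 called genes. Their log2 differences, chm/+ minus wild type, began in order of p with CG14153 (-2.61), CG10814 (-3.64), CG30148 (-2.24), CG1942 (-2.36), CG4650 (-2.10), CG43175 (-4.26), CG3589 (-0.57), CG30087 (-1.84), Myo61F (-2.21), CG15152 (-1.64) and NimC4 (-3.23). The following ones were CG32032 (-0.58), CG1208 (-1.20), CG43336 (-1.57), CG2010 (-0.80), CG18858 (-0.89), CG31683 (-0.88), Jhe (-2.94), CR6900 (-1.21), CG5535 (-0.62), pyx (-0.56) and dos (-0.82). The remaining negative differences were those of CG32091 (-0.99), scb (-0.85), CG6891 (-2.40), spheroide (-2.73), Act42A (-0.89), ItgalphaPS4 (-0.98), FBgn0033786 (-1.30), CG17119 (-0.67), Tsp42Er (-2.31), Tsp42Ec (-1.30) and CG7763 (-2.95). The positive ones were those of SMC2 (1.39) and CG17005 (1.08).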

How the results depend on the processing

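The count of 35 genes called for the age by genotype difference was 38 after scaling to column totals, 36 with quantile normalization, 29 with an addend of 0.1 CPM, 48 with 2 CPM and 25 of 8388 genes with a filter of 5 CPM. Limma array weights gave 100 (34 of the 35 among them), the first 10 columns alone 69 and the last 10 alone 1. A term for the column set gave 46, and leaving out CHMo12, CHMy2 and 2uo2 gave 40, 28 of them among the 35. Leaving out 1 library gave 19 (without 2uo4) to 66 (without CHMo5), with 22 without CHMo2. No called gene changed sign in any setting run, and 17 kept their call whichever library was left out. In every scaling, addend, filter and moderation setting that still held the gene, 27 kept their call. The addend of 0.1 CPM ended the calls of CG30087, spheroide, ItgalphaPS4, FBgn0033786, Tsp42Ec and CG7763. An addend of 2 CPM ended that of Tsp42Er. The filter of 5 CPM removed CG30148, CG4650, CG15152, CG43336, CR6900, ItgalphaPS4, FBgn0033786 and Tsp42Ec, which were therefore not tested there. Under that filter 25 of the 35 were called, and CG7763 and Tsp42Er were tested and not called.

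For midlife against young in wild type, array weights gave 3758 calls and the last 10 columns 408, and leaving out 1 library gave 1607 to 2399. In chm/+ the last 10 columns gave 365, and leaving out 1 library 1237 to 1740. Between genotypes when young, array weights gave 3194, the set term 394, the first 10 columns 290, the last 10 columns 17, and leaving out 1 library 91 to 176. At midlife these were 626 with array weights, 357 with the set term, 17 in the last 10 columns, and 121 to 262. The causes of these shifts were not tested, and subsets hold fewer libraries.

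With the number in the column names as a replicate block within genotype, 17 genes were called for the difference (14 of the 35), against 32 in the same libraries with no block, and 1524 in wild type and 697 in chm/+, where the same libraries with no block gave 1839 and 945. NimC4, Jhe, scb, spheroide and CG3589 were among the 21 genes not called under it. Comparisons between genotypes could not be fitted with that block, and without it the same libraries gave 70 when young and 176 at midlife. A block in chm/+ alone, with all wild-type libraries and without CHMo5, CHMy1 and CHMy4, was chosen after seeing the data. This block gave 54 calls for the difference (51 with no block) and 1072 in chm/+ (1018 with no block). It ended the calls of CG5535, pyx, CG17005 and Tsp42Ec and of no other gene among the 35. Of the list medians, 1148 values kept the sign of the main value and stayed within a set ratio of it, and 447 did not. A small median can therefore fall among the 447 after a slight shift. Read depth is unknown, so precision rests on the spread between libraries.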
